A study of Mus musculus with 6 samples.

Results

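The genes described here encode 34 enzymes that make, recycle and balance nucleotides. They were taken by gene symbol from a list of purine, pyrimidine, deoxynucleotide and salvage steps, and all 34 were found among the 26286 genes of the count table and passed the filter on low counts. RNA was sequenced from cells of 1 tri-transgenic mouse leukemia, A024, a B progenitor acute lymphoblastic leukemia growing in Rag1 knockout hosts. Such hosts lack mature B and T cells but keep their own myeloid cells. The untreated group holds 3 libraries of GFP-high cells from mice without doxycycline (dox). The dox group holds 3 libraries of GFP-mid cells from mice fed dox for 3 days, labelled as Pax5 restoration. Both groups were sorted from bone marrow, each library from a separate mouse, and no age of the mice was at hand. Dox given to a leukemia without the hairpin was not analysed here. The labels do not describe the transgenes. As background from knowledge of the published model, dox shuts off a hairpin RNA that silences Pax5 and is linked to GFP, in blood cells that also carry an active form of Stat5.

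Nucleotides are built de novo on phosphoribosyl pyrophosphate, which leads to inosine monophosphate and then to adenine and guanine nucleotides, while a separate route leads through orotate to uridine and cytidine nucleotides. Ribonucleotide reductase turns ribonucleotides into the deoxynucleotides (dNTPs) used for DNA, and salvage kinases and phosphoribosyltransferases recycle bases and nucleosides. Dividing lymphoid cells draw heavily on these routes, and thiopurines and cytarabine, drugs used in lymphoblastic leukemia, act on them or are activated by them.

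The comparison asked how expression in an established leukemia changes when Pax5 returns. Levels are given as CPM, counts relative to library size with the trimmed mean of M values as correction. Total counts per library ran from 14185203 to 15612435, and a gene was called at an adjusted p under 0.05 over 12275 genes tested by the quasi-likelihood test of edgeR. Pax5 (Entrez Gene 18507), the B cell commitment factor, measured 153.8, 93.5 and 105.2 CPM without dox and 227.2, 281.2 and 230.6 CPM after dox, in libraries 1, 2 and 3 of each group (log2 fold change 1.07, SE 0.17, adjusted p = 0.000695). Every dox library was above every untreated one. All replicates carry the same leukemia, so p-values measure the spread between mice and not between leukemias, and sort gate and treatment changed together and cannot be told apart. Among 10 genes listed as B lineage markers, none was near 0. Of these, 8 were called higher, Ptprc among them, against 27.0% of all genes tested. Cd24a, the most abundant without dox, was called lower (−0.88, SE 0.08), while Il7r was not called. Their summed level was 7039 to 7210 CPM in untreated and 9190 to 10063 CPM in dox libraries.

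Transcripts of most nucleotide enzymes fell after dox. Of the 34 genes, 28 (82.4%) were called lower, against 26.6% of all genes tested, and 4 (Ctps2, Rrm2b, Samhd1 and Dck) were called higher, against 27.0% of all genes. The other two, Impdh1 and Cmpk1, were not called. The median log2 fold change was −0.76 over the 34 genes and 0.01 over all genes tested. Dox libraries lay wholly below untreated ones for 29 members, against 31.0% of all genes, and wholly above for 4, against 31.2%. A fall of more than 2-fold was called for 9 members (26.5%), and for 3.86% of all genes. Together the 34 genes took 0.664%, 0.684% and 0.685% of all counts without dox and 0.464%, 0.474% and 0.499% after it. In sorted bulk cells, fewer cells with a transcript and less of it per cell cannot be told apart.

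**Figure D1:**
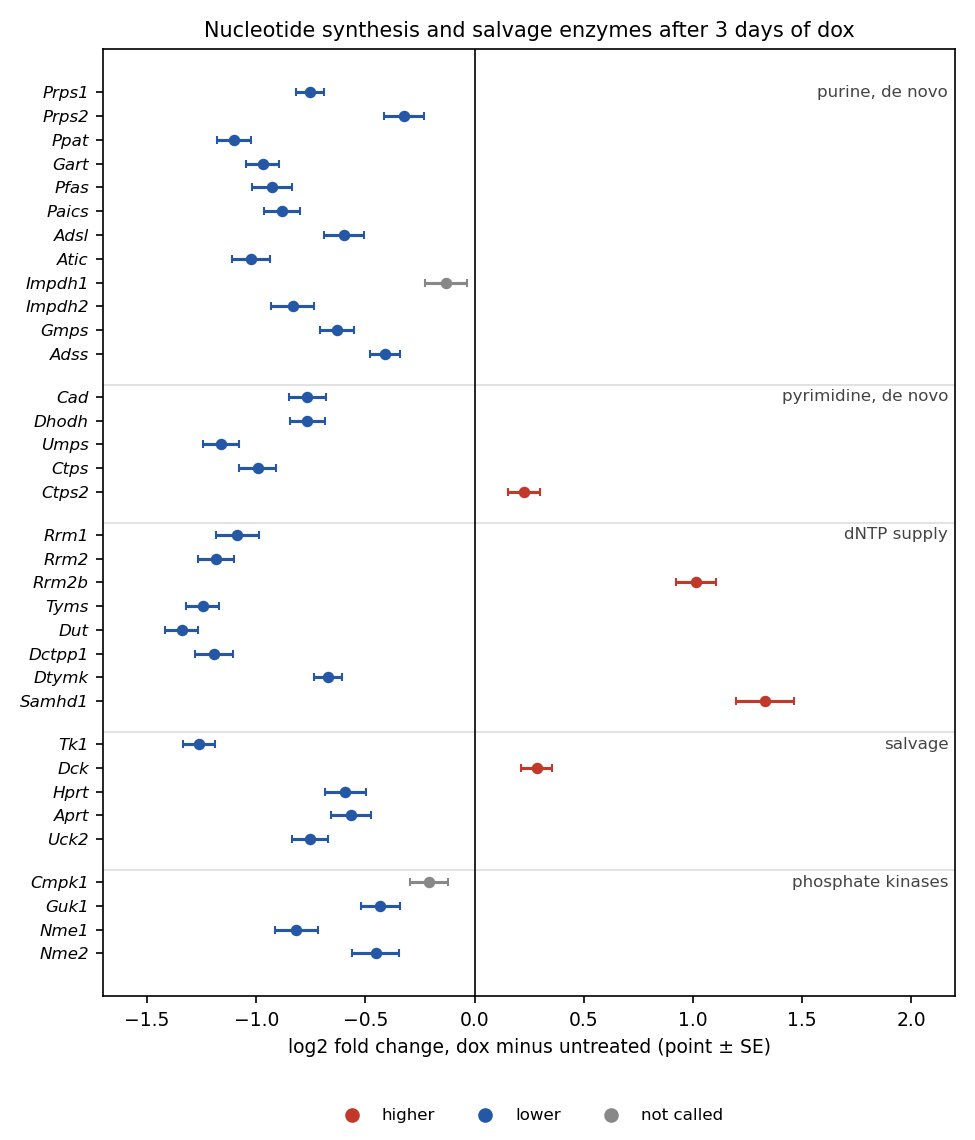
Log2 fold change of each of the 34 enzymes (x axis, dox minus untreated, point with SE from edgeR, 3 libraries a group), grouped by step, with genes called higher in red, called lower in blue and not called in grey. The 28 blue genes lie left of 0 in every step, and the 4 red genes are Ctps2, Rrm2b, Samhd1 and Dck.

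The purine route fell almost along its whole length. Of 12 genes, 11 were called lower, against 26.6% of all genes tested, and 1, Impdh1, was not called. The median log2 fold change was −0.79. Ppat (231327), the amidotransferase of the committed step, measured 139.9, 136.3 and 138.8 CPM without dox and 58.9, 64.6 and 70.0 CPM after dox. The groups were far apart and each was tight (log2 fold change −1.10, SE 0.08, adjusted p = 9.9e-06, edgeR). Atic (108147), which closes the ring to inosine monophosphate, measured 258.7, 283.0 and 285.8 CPM and then 119.7, 148.0 and 139.4 CPM, again without overlap (−1.02, SE 0.09, adjusted p = 2.54e-05). Between them in the pathway stand Gart, a trifunctional enzyme, Pfas, an amidotransferase, Paics, a bifunctional enzyme, and Adsl, a lyase that also serves the adenine branch. Their log2 fold changes were −0.97, −0.93, −0.88 and −0.60. For all of them dox libraries lay wholly below untreated ones, against 31.0% of all genes tested. Paics had the highest level per length of these 6 genes, with 167 ± 4.87 RPKM (CPM per 1000 bases of gene length) in untreated and 90.6 ± 8.64 RPKM in dox libraries (SD, n = 3 each).

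The enzymes before and after this core were called lower too, except Impdh1. Prps1 (19139) and Prps2 (110639) make phosphoribosyl pyrophosphate and changed by −0.75 (SE 0.07) and −0.32 (SE 0.09). Prps2 measured 296.7, 299.8 and 299.8 CPM without dox and 257.8, 203.3 and 255.0 CPM after dox, so that dox replicate 2 was the lowest by far. On the adenine branch Adss, which makes adenylosuccinate, changed by −0.41 (SE 0.07). On the guanine branch Gmps, GMP synthetase, changed by −0.63 (SE 0.08). Impdh1 (23917), one of the isoenzymes that commit inosine monophosphate to guanine nucleotides, measured 352.5, 413.6 and 392.8 CPM without dox and 325.0, 401.0 and 332.8 CPM after dox. The groups overlapped (−0.13, SE 0.10, adjusted p = 0.288), but without dox replicate 2 the change was −0.23 and was called at adjusted p = 0.04.

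Its partner Impdh2 (23918) was called lower, from 20.5, 19.4 and 19.9 CPM to 11.0, 11.9 and 10.7 CPM (−0.83, SE 0.10, adjusted p = 0.000135). Of the 50-base words of the longest annotated Impdh2 transcript, 73.9% also occur in the processed pseudogene Impdh2-ps. The row of that pseudogene held 4785, 5318 and 5297 counts in untreated and 2582, 2704 and 3044 in dox libraries, or 350.4 ± 13.9 and 184.3 ± 12.9 CPM (SD, n = 3). Reads from the sequence that gene and copy share cannot be told apart. With the rows added the level was 370.4 ± 13.5 CPM before and 195.5 ± 13 CPM after dox (−0.92, SE 0.07, adjusted p = 1.53e-05, edgeR). The direction of Impdh2 was the same either way, but its level was not. Prps1, Tyms and Nme2 also had a copy with a row of its own, Prps1l3, Tyms-ps and Gm5566, which measured 223.7, 35.8 and 17.0 CPM in untreated libraries. These copies hold only 10.1%, 3.34% and 8.52% of the words of the member, and Prps1l3 is annotated as protein coding. With all reads of the copies added the changes were −0.62, −1.24 and −0.46, and the calls did not change.

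Of the 5 genes of the uridine and cytidine route, 4 were called lower and 1, Ctps2, higher, with a median of −0.77. Over all genes tested, 26.6% were called lower and 27.0% higher. Umps (22247), which makes uridine monophosphate from orotate, fell most, from 130.8, 137.2 and 147.1 CPM to 56.2, 64.4 and 65.1 CPM (−1.16, SE 0.08, adjusted p = 1.02e-05). Cad (69719), which holds the opening activities of the route in 1 polypeptide, measured 265.3, 301.4 and 294.1 CPM and then 153.2, 169.4 and 183.5 CPM (−0.77, SE 0.09). Dhodh, the mitochondrial dehydrogenase of the route, changed by −0.77 (SE 0.08) from a level of 15.2 RPKM, below those of Cad (40.4 RPKM) and Umps (43.0 RPKM). Dox libraries lay wholly below untreated ones for all 3 of these genes, against 31.0% of all genes tested.

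CTP synthase is encoded by a pair of genes that moved apart. Ctps (51797) fell from 111.9, 114.3 and 124.0 CPM to 55.0, 56.4 and 64.4 CPM (−0.99, SE 0.08, adjusted p = 2.1e-05). Ctps2 (55936) rose from 76.1, 78.0 and 69.4 CPM to 85.2, 89.2 and 87.1 CPM (0.23, SE 0.07, adjusted p = 0.0241). That rise was small and was not called without untreated replicate 3 (adjusted p = 0.117), dox replicate 2 (0.0535) or dox replicate 3 (0.0546). The ratio of Ctps to Ctps2 per length was 3.38 in untreated and 1.45 in dox libraries.

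The largest fall and the largest rises both stood among the enzymes of dNTP supply. Of 8 genes, 6 were called lower and 2 higher, against 26.6% and 27.0% of all genes tested, with a median of −1.14. Dut (110074), which removes dUTP and yields dUMP, fell most of all 34 genes, from 245.5, 264.7 and 264.1 CPM to 93.5, 102.7 and 109.4 CPM (−1.34, SE 0.08, adjusted p = 4.21e-06). Tyms (22171), thymidylate synthase, measured 95.8, 89.6 and 86.9 CPM and then 37.6, 36.7 and 40.6 CPM (−1.25, SE 0.08). Dctpp1, which degrades dCTP and its modified forms, changed by −1.19 (SE 0.09). Dtymk, the kinase that follows Tyms, changed by −0.67 (SE 0.06).

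Ribonucleotide reductase joins a large subunit, Rrm1, to 1 of 2 small subunits. Rrm2 serves cells in S phase, and Rrm2b is known as a target of p53 that serves resting and damaged cells. Rrm1 (20133) measured 664.4, 759.6 and 735.7 CPM without dox and 326.4, 305.8 and 384.9 CPM after dox (−1.09, SE 0.10, adjusted p = 3.13e-05). Rrm2 (20135) measured 449.2, 544.6 and 522.2 CPM and then 221.1, 224.6 and 220.8 CPM, a 2.27-fold fall (−1.19, SE 0.08, adjusted p = 9.57e-06). The dox libraries of Rrm2 were nearly equal, with a coefficient of variation of 0.954%. Rrm2b (382985) went the other way, from 127.6, 112.0 and 100.6 CPM to 241.6, 219.1 and 227.0 CPM, a 2.02-fold rise without overlap (1.02, SE 0.09, adjusted p = 3.03e-05). Per length, Rrm2 stood at 9.24 times Rrm2b in untreated and at 2.01 times in dox libraries. By this measure Rrm2 remained the more abundant small subunit in all 6 libraries. In CPM, without division by length, the dox means were 222.1 for Rrm2 and 229.3 for Rrm2b. Trp53, which encodes p53 and was named after its values were seen, changed by −0.42 (SE 0.06).

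Samhd1 (56045), the hydrolase that degrades dNTPs, rose more than any other member, from 116.3, 84.1 and 87.1 CPM to 272.0, 217.4 and 233.4 CPM (1.33, SE 0.13, adjusted p = 4.97e-05). No dox library overlapped an untreated one, and replicate 1 was the highest of each group. Myeloid cells are known to express much Samhd1, and myeloid marker genes were measured beside it. Of 10 macrophage genes, 9 were called higher, against 27.0% of all genes tested, and none was at 0 in all libraries. Their summed level was 13.4, 7.11 and 7.27 CPM without dox and 40.5, 36.8 and 31.6 CPM after dox. Of 10 neutrophil genes, 8 were tested and all 8 were called higher, and the groups stood apart for 4 of them, with sums of 89.5 to 115 CPM without dox and 534, 115 and 254 CPM after dox, in libraries 1, 2 and 3. S100a9, the most abundant of them, changed by 1.51 (SE 0.48, adjusted p = 0.0241, edgeR), but by 0.74 and without a call when dox replicate 1 was left out (adjusted p = 0.0793), and its call was also lost without untreated replicate 2 (0.0740) or untreated replicate 3 (0.0775). Without dox replicate 1 the change of Samhd1 was 1.23. The part of such cells in the rise of Samhd1 was not tested.

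**Figure D2:**
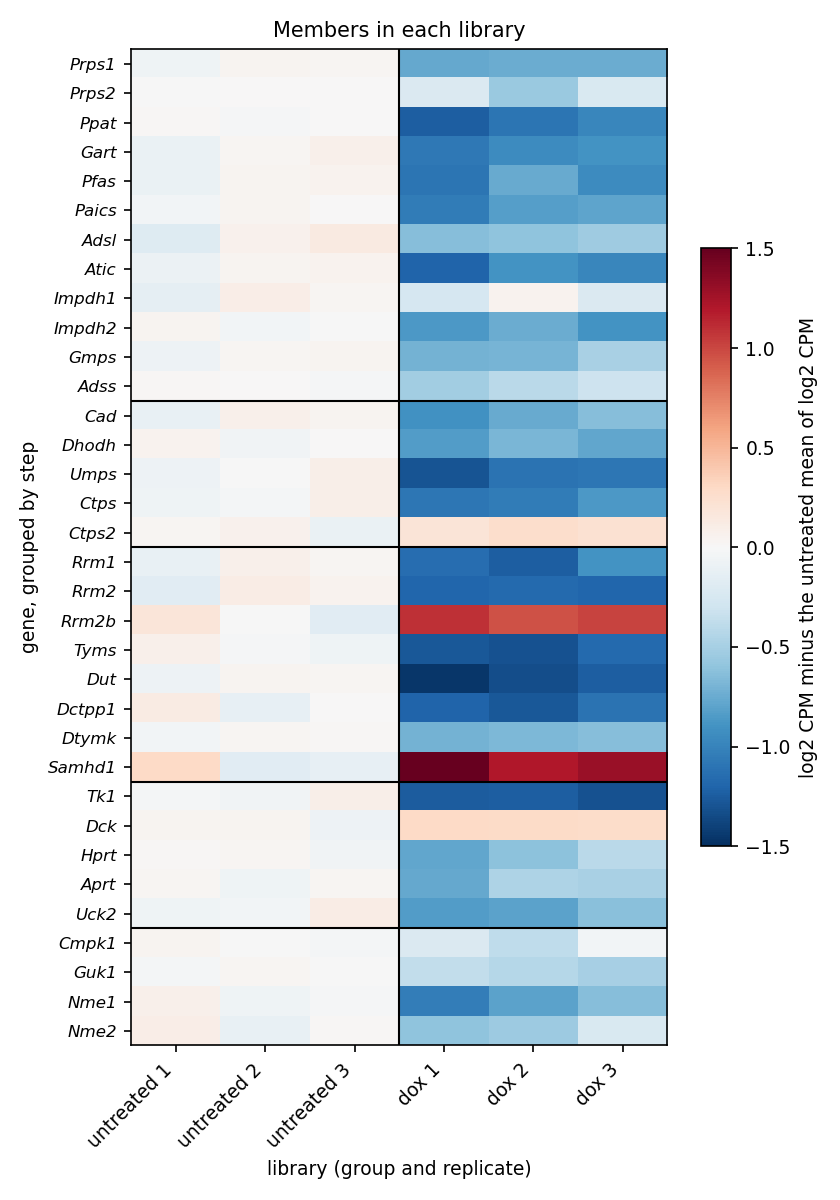
Level of each of the 34 enzymes (rows, grouped by step) in each of the 6 libraries (columns), as log2 CPM minus the mean of the untreated log2 values, blue below and red above. The 3 dox libraries share 1 pattern, with Rrm2b and Samhd1 red in all of them and Impdh1 near 0 in dox replicate 2.

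Salvage enzymes moved in both directions. Tk1 (21877), the cytosolic thymidine kinase of S phase, fell from 91.6, 90.2 and 99.9 CPM to 39.6, 40.0 and 37.9 CPM, a 2.40-fold fall (−1.26, SE 0.07, adjusted p = 4.75e-06). Dck (13178), which phosphorylates deoxycytidine and activates cytarabine, rose slightly, from 765.0, 763.5 and 705.3 CPM to 914.2, 906.1 and 900.2 CPM (0.28, SE 0.07, adjusted p = 0.0071). Dck had the highest level per length of the 34 genes in both groups, with 244 ± 11.1 RPKM in untreated and 297 ± 2.31 RPKM in dox libraries (SD, n = 3). Among the purine phosphoribosyltransferases, Hprt, which also activates thiopurines, changed by −0.59 (SE 0.09) and Aprt by −0.57 (SE 0.09). Uck2, the uridine-cytidine kinase, changed by −0.75 (SE 0.08). The summed level of the 5 salvage genes, with Dck the most abundant, overlapped between groups, at 1230 to 1278 CPM in untreated and 1198 to 1243 CPM in dox libraries. The summed purine genes did not overlap, at 2297 to 2468 CPM and 1477 to 1611 CPM.

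The kinases that raise monophosphates and diphosphates to triphosphates had the smallest median change of the steps, −0.44. Nme1 (18102), a nucleoside diphosphate kinase, fell from 197.9, 180.5 and 186.4 CPM to 91.8, 107.6 and 121.3 CPM (−0.82, SE 0.10, adjusted p = 0.00015). Its neighbour Nme2 changed by −0.45 (SE 0.11) and Guk1, guanylate kinase, by −0.43 (SE 0.09). Cmpk1 (66588), which phosphorylates UMP and CMP, measured 183.9, 177.3 and 175.0 CPM and then 153.3, 136.9 and 173.8 CPM. Its groups just missed each other, and the change was not called (−0.21, SE 0.09, adjusted p = 0.0724), although without dox replicate 3 it was −0.31 and called at adjusted p = 0.0108. Nme1 and Nme2 share 12.5% and 48.9% of their annotated exon bases with a gene model on the same strand, Gm20390, so their split of reads is uncertain.

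Isoenzyme pairs were compared directly, since a call for one gene and not for its partner does not show that they differ. The log2 ratio of reads per length was taken in each library for 6 pairs. It did not overlap between groups in any pair, and each exact two-sided permutation test gave p = 0.1 (0.1 after Benjamini-Hochberg adjustment over 6 pairs), the smallest value that 3 libraries against 3 allow. Rrm2 to Rrm2b shifted most, from 2.87, 3.33 and 3.43 to 0.92, 1.09 and 1.01, a difference of −2.20. Tk1 to Tk2, the mitochondrial thymidine kinase, shifted by −2.15 and Ctps to Ctps2 by −1.22. Prps1 to Prps2 shifted by −0.42 and Nme1 to Nme2 by −0.36.

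Impdh1 to Impdh2 shifted upward, by 0.70. With the reads of Impdh2-ps added to Impdh2 the shift was 0.79, but the order of the isoenzymes was different. The mean log2 ratio was then −0.50 in untreated and 0.29 in dox libraries, in place of 3.71 and 4.41. For Prps1 to Prps2 the level also depended on the copy, though Prps1l3 holds only 10.1% of the words of Prps1. With all reads of Prps1l3 added and the length of Prps1 kept, the mean was 1.05 and 0.76, in place of −0.53 and −0.95. Most of these reads may belong to Prps1l3 itself, so the order of Prps1 and Prps2 cannot be read from that sum.

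**Figure D3:**
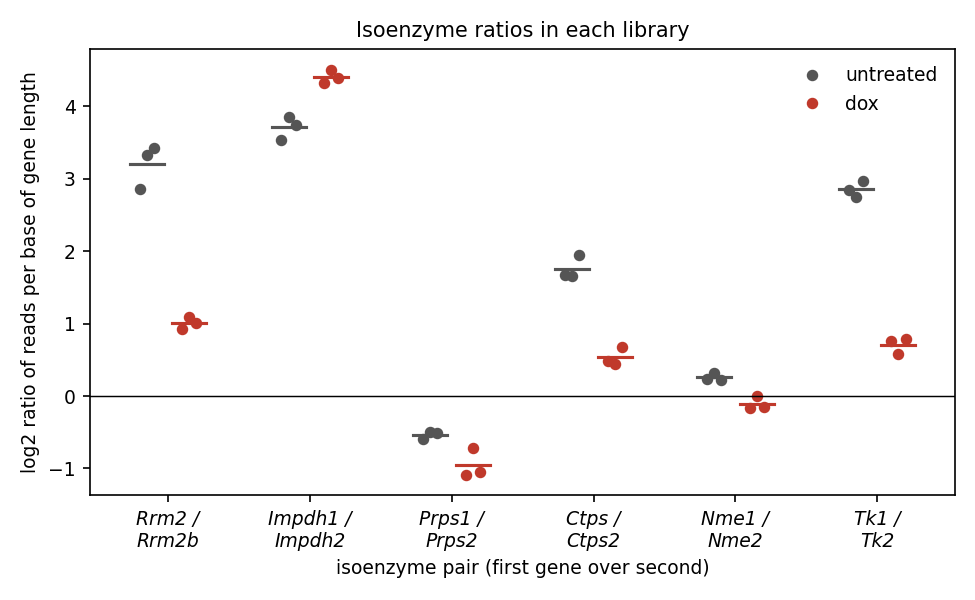
Log2 ratio of reads per base of gene length between isoenzymes (y axis) in each library, untreated in grey and dox in red, with the group mean as a bar, 3 libraries a group. Points of the groups do not overlap in any of the 6 pairs, and Impdh1 to Impdh2, shown without the reads of Impdh2-ps, is the only pair that shifts upward.

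Promoter windows from RefSeq (GRCm38.p6, 250 bases before to 50 after a start) were found for 31 of the 34 genes and searched on both strands for the palindrome CACGTG, the core of Myc binding sites, and for the E2F letters TTTCGCGC, TTTGGCGC, TTTCCCGC and TTTGCCGC. CACGTG was found for 6 genes (19.4%), against 8.09% of 27025 genes with a window and 7.15% of all 32851 windows. The stretches around it are shown for these 6 genes. Those of Paics and Impdh2 lie wholly, and that of Atic partly, in annotated exons. All 6 genes were called lower, as were 82.4% of the 34 members, so their direction does not set them apart. Any of the E2F letters was found for 2 members (6.45%), Prps2 and Ppat, against 2.60% of genes. Cad, Rrm2 and Tk1 held none of these letters in this window. A match is a description of letters and not a binding site. Bases run 5′ to 3′ on the gene's strand, with the matched letters in capitals.

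Paics (chr5:76951087-76951116, plus strand): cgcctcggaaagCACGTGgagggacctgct
Atic (chr1:71557137-71557166, plus strand): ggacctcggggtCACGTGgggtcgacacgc
Impdh2 (chr9:108560314-108560343, plus strand): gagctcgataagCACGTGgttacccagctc
Tyms (chr5:30073669-30073698, minus strand): aaccacttctgtCACGTGggggcggggtct
Dtymk (chr1:93802065-93802094, minus strand): gtctcgaacttcCACGTGaccagagcctgc
Nme1, its second window (chr11:93968037-93968066, minus strand): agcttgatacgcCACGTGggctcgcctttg
Ppat (chr5:76951718-76951747, minus strand): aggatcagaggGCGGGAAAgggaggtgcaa
Ppat (chr5:76951771-76951800, minus strand): gagcagaccgcGCGGGAAAaaagggcagtg

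In Ppat the letters lie on the other strand, so they read GCGGGAAA, at both places. Both Ppat stretches lie wholly in annotated exons. The wider window of Tyms, shown because it holds no annotated exon, is the 250 bases before its start (chr5:30073626-30073875, minus strand).
Tyms: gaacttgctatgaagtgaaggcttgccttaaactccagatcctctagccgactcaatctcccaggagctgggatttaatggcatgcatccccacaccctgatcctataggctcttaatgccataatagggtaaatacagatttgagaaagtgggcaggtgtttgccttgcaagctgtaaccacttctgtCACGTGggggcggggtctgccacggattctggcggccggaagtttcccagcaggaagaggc

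Ppat and Paics lie head to head on chromosome 5, Ppat on the minus strand with its RefSeq start at 76951578 and Paics on the plus strand with its start at 76951302. Their 5′ ends therefore overlap, by 272 exon bases in GENCODE M21, which is 6.15% of the exon bases of Ppat and 8.67% of those of Paics. The sources used here give no strand setting of the counting, so reads in this overlap cannot be told apart. Gart shares 19.7% of its exon bases with Gm15964 on the opposite strand and Rrm2b 8.04% with Gm49085.

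Other genes of nucleotide metabolism moved in both directions. Of 68 such genes in the table, 50 were tested, 22 (44.0%) were called lower and 10 higher, with a median of −0.19, against 26.6% lower and 27.0% higher over all genes. Of those 22 genes, 8 belonged to folate supply. The count of higher genes was 6 without untreated replicate 2, untreated replicate 3 or dox replicate 1. All 8 genes of folate supply were called lower. Shmt1, which feeds 1-carbon units to thymidylate synthesis, fell from 121.8, 112.8 and 127.2 CPM to 43.9, 42.7 and 46.2 CPM (−1.44, SE 0.08, adjusted p = 2.85e-06). Mthfd1, a trifunctional folate enzyme, changed by −1.16 (SE 0.09) and Shmt2, the mitochondrial counterpart of Shmt1, by −0.78 (SE 0.08). Dctd, which deaminates dCMP to the substrate of Tyms, changed by −1.24 (SE 0.10) and Nudt1, which clears oxidized purine dNTPs, by −0.90 (SE 0.09). Nt5dc2, a gene of the nucleotidase family, changed by −1.35 (SE 0.10).

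A pair of kinases of mitochondrial salvage rose, and the second of them, like the transporters and Adk, was named after its values were seen. Tk2 (57813), the mitochondrial thymidine kinase, measured 22.4, 23.5 and 22.2 CPM without dox and 41.1, 46.7 and 38.5 CPM after dox, without overlap (0.89, SE 0.09, adjusted p = 5.6e-05). Dguok, deoxyguanosine kinase, rose from 22.4, 22.7 and 22.0 CPM to 27.0, 27.1 and 25.9 CPM (0.25, SE 0.08, adjusted p = 0.0195). Of 5 nucleoside transporters tested, 2 were called lower and 2 higher. Slc29a1, an equilibrative transporter, changed by −0.79 (SE 0.09) and Slc29a2, of the same family, by −1.29 (SE 0.19). Slc29a4, also of that family, changed by 1.16 (SE 0.36) from a low level of 0.64 CPM. Slc28a2, the only concentrative one tested, rose from 65.6, 52.6 and 63.7 CPM to 137.9, 119.7 and 100.5 CPM (0.98, SE 0.13). Of 14 other purine genes tested, 3 (21.4%) were called lower and 4 higher, close to the 26.6% and 27.0% of all genes tested. Adk, adenosine kinase, changed by −1.01 (SE 0.13). Among 6 nucleotidases 3 (50%) were called lower and none higher, and among 6 further phosphate kinases 4 (66.7%) were called lower and 1 higher.

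**Figure D4:**
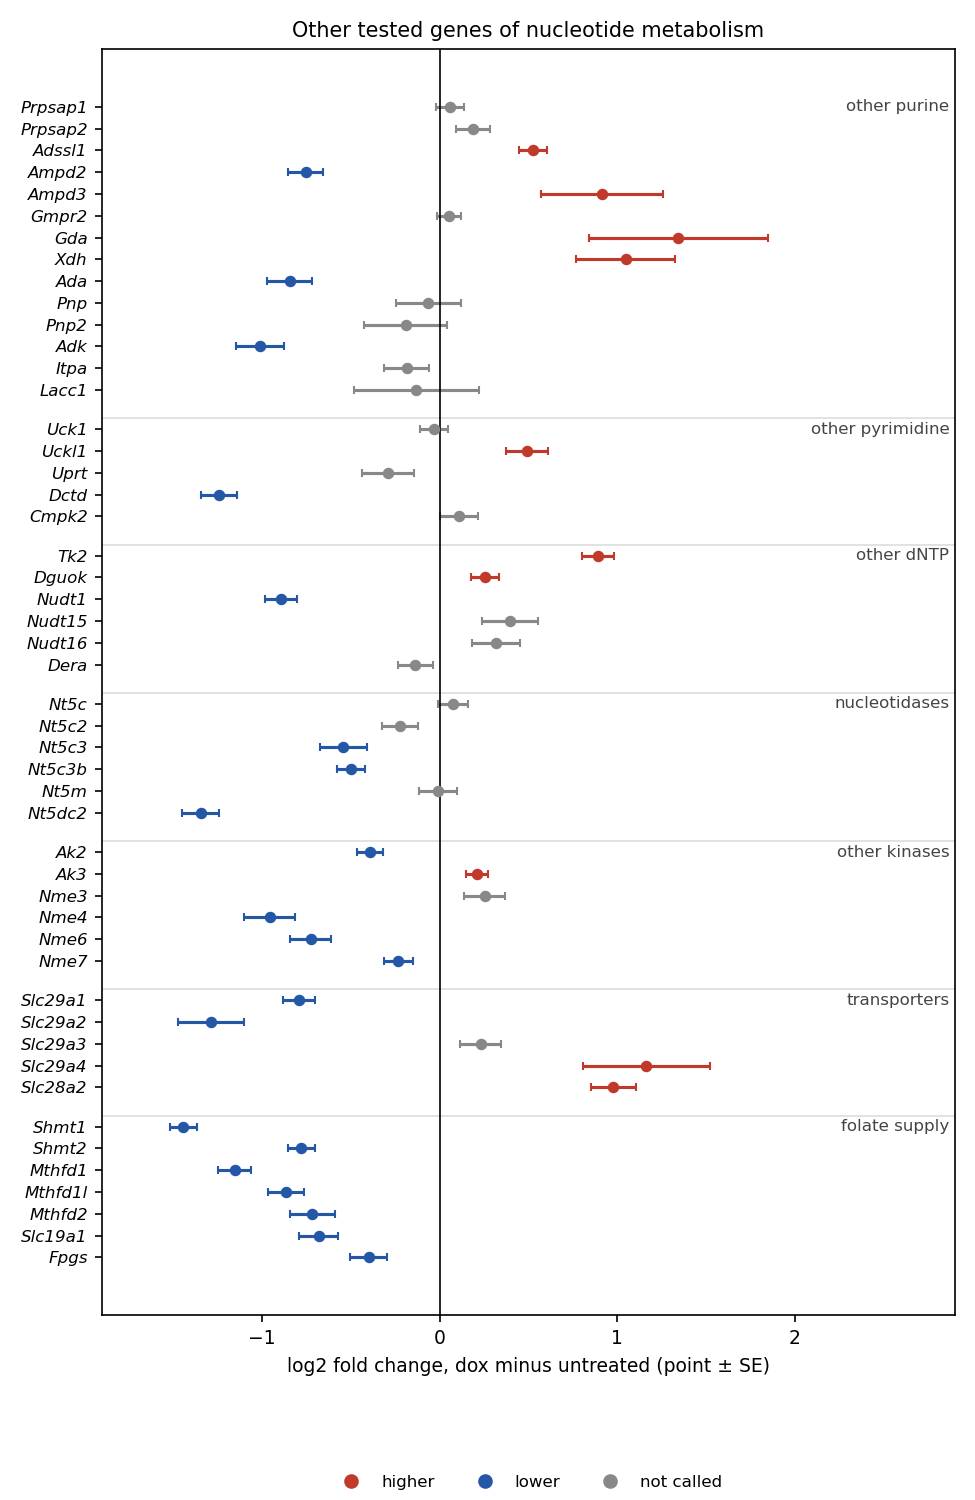
Log2 fold change of the other tested genes of nucleotide metabolism, with 1 of the 50 not shown (x axis, dox minus untreated, point with SE from edgeR, 3 libraries a group), grouped by function, called higher in red, lower in blue and not called in grey. All folate genes shown are blue, while the other groups hold red, blue and grey genes or, for the nucleotidases, blue and grey ones.

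Genes of DNA replication moved with the members. All 26 genes of the replication list were called lower, against 26.6% of all genes tested, with a median of −1.21. Pcna, the sliding clamp, changed by −1.14 (SE 0.08) and Mcm2, a helicase subunit, by −1.21 (SE 0.07). The proliferation antigen Mki67 changed by −0.98 (SE 0.11). Among a list of regulators and cycling markers, Myc, a factor known to drive nucleotide genes, fell from 294.3 ± 20.9 to 98.1 ± 15.9 CPM and E2f1, a factor of S phase entry, from 71.0 ± 3.45 to 26.7 ± 1.81 CPM (SD, n = 3), with changes of −1.59 (SE 0.11) and −1.41 (SE 0.08). Of the 11 genes in that list 7 were called lower and 2 higher, against 26.6% and 27.0% of all genes tested. The higher ones were Rb1 (0.22, SE 0.07) and E2f2 (0.27, SE 0.08). E2f2 was more abundant than E2f1, at 276.2 ± 17.6 CPM without dox and 331.9 ± 23.2 CPM after it (SD, n = 3). The part of fewer dividing cells, or of Myc and the E2F factors, in the changes of the enzymes was not tested.

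Markers of other cells were measured beside this. Their lists are short, and over all genes tested 26.6% were called lower and 27.0% higher. The erythroid list held 1 called gene of 5 tested, Car2, which changed by −1.67 (SE 0.12) and is not specific to red cells, while Tfrc measured 464.3 ± 102 and 437.4 ± 63.6 CPM (SD, n = 3). The erythroid sum was 1549 to 1613 CPM without dox and 718 to 919 CPM after it. The sums were 4.54 to 6.05 CPM in untreated and 4.01 to 10.4 CPM in dox libraries for T and NK cell genes (Klrb1c and Prf1 the most abundant over all 6 libraries), with Cd3e and Cd8a at 0, and 0.671 to 3.15 and 1.92 to 2.63 CPM for dendritic genes (Flt3 and Itgax). Megakaryocyte genes (Itga2b and Gp1bb) summed to at most 0.921 CPM in any library. Of 4 plasma cell genes tested 2 were called higher and 2 lower, and the list (Xbp1 and Jchain) summed to 369 to 536 CPM in untreated and 286 to 366 CPM in dox libraries. Stromal genes summed to 94.7 to 103 and 130 to 161 CPM, nearly all of it Pecam1, with Col1a1 at 0.802 ± 0.342 and 1.77 ± 0.767 CPM (SD, n = 3). Of 7 genes of cell handling 4 were called higher and 1 lower, with sums of 82.2 to 105 and 153 to 241 CPM, led by Jun and Hspa1b. Over all 6 libraries, the most abundant genes of the other lists were Cd24a and Vpreb1 for the B lineage, Vcam1 and Cd68 for macrophages, and S100a9 and S100a8 for neutrophils. Their part in the results above was not tested.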

How the data were processed

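The deposited table held whole-number counts for each Entrez Gene entry, as the authors left them. A column beside them, per the file headers, gives gene length in bases. Genome build mm9, featureCounts and CASAVA 1.8.2 are named per the submitters' processing notes. Nothing used here states the aligner, the annotation, strandedness or the featureCounts version. The 6 per-sample files equalled the series table. Of 26286 identifiers 24176 matched a RefSeq symbol (GRCm38.p6).

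Genes were filtered with filterByExpr (minimum count 10), which kept 12275 genes and 99.93% of counts. Groups were compared with edgeR 4.0.16 in R 4.3.3 (TMM, quasi-likelihood, no covariates, Benjamini-Hochberg over all genes tested). Code was tested on simulated counts. Ratios of isoenzymes used a pseudocount of 0.5 counts. Shared sequence was measured as 50-base words of the longest GENCODE M21 transcript found in other genes. Copies were taken at 5% of words, or at 1% where they carry the member's name, and adding them to the member was an alternative chosen after seeing the data.

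The members and lists were chosen with earlier results of these data known. Named genes are all 34 members, the 8 other pathway genes with the smallest p, Pax5, Mcm2, Pcna, Mki67, Myc, E2f1 and the 2 most abundant genes of each marker list. Of these, 1 gene is not reported here. Other genes were named after their values were seen. Windows planned for printing were shortened where exons are annotated or left out where no searched letters were found, and a planned comparison of protein sequences was not made.

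Alternatives were scaling by upper quartile, by totals or by size factors from DESeq2 1.42.0, its own test, voom from limma 3.58.1, no filter, a floor of 1 CPM in 3 libraries, a replicate block, leaving out each library, and glmTreat at 1.2-fold.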

Additional observations from a re-analysis of the deposited data

How the results depend on the processing

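Of the 32 calls among the 34 enzymes, all 32 kept their direction and call under scaling by upper quartile, by totals or by size factors, a floor of 1 CPM in 3 libraries, DESeq2's own test, voom and the replicate block. With copies added, 28 members were lower and 4 higher, as before. With the replicate block the counts over all genes were 3434 higher and 3356 lower, against 3316 and 3266 without it. Replicate numbers were not treated as pairs. Same-numbered libraries correlated in their deviations from the group means at 0.31, 0.29 and −0.04, and differently numbered ones at −0.34 to 0.02. With 3 libraries a group, these correlations cannot settle whether the numbers pair the mice. No low-count filter lost Ctps2 (0 pyrimidine members higher) and called Cmpk1. A minimum change of 1.2-fold (glmTreat) left 2103 genes higher and 2072 lower, 2 members higher (Rrm2b and Samhd1), 27 lower (Prps2 lost), 0 pyrimidine and 0 salvage members higher, and 6 other pathway genes higher. Leaving out 1 library at a time gave 28 to 29 members lower and 3 to 4 higher, 0 to 1 pyrimidine members higher (0 without untreated replicate 3, dox replicate 2 or dox replicate 3), and 6 to 11 other pathway genes higher (6 without untreated replicate 2, untreated replicate 3 or dox replicate 1). Markers that were not called changed sign: leaving out 1 library moved Tfrc between −0.231 and 0.0870 (highest without untreated replicate 1), Klrb1c between −0.729 (without dox replicate 2) and 0.648, and Flt3 between −0.792 and 0.657 (without untreated replicate 1), while limma voom gave −0.0479 for Klrb1c and 0.00283 for Flt3. The causes were not tested. The lowest level of a member in any library was 10.7 CPM, so depth bears less on the members than on the rarest markers.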
